A study of Homo sapiens with 2 samples.

Results

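The genes described here were 10 immune checkpoint ligands and related surface proteins that a tumour cell can carry: CD274, PDCD1LG2, CD276, PVR, NECTIN2, CD47, CD80, TNFRSF14, VSIR and NT5E. They were chosen by symbol, joined to the deposited transcripts through the Ensembl identifiers of GENCODE release 29, and were 10 of 49627 genes listed in the files. The data were RNA-seq of MDA-MB-231 cells, a human triple-negative breast cancer line, with 1 library from cells in which RBMS1 had been knocked down and 1 library from control cells. RBMS1 is an RNA-binding protein. According to the methods of the study, knockdown lines were made with lentiviral shRNA in the pLKO.1 plasmid and kept as stable lines, and the labels give both libraries the same line and medium. The labels name 1 shRNA culture, so an effect of that shRNA other than on RBMS1 cannot be told apart from an effect of RBMS1. With 1 library in each group there was no replicate, and every difference below is between these 2 libraries, with no test.

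Checkpoint ligands are surface proteins through which a cell restrains the lymphocytes and phagocytes that touch it. PD-L1, the product of CD274, and PD-L2, the product of PDCD1LG2, bind PD-1 on T cells and dampen signalling from the T cell receptor. PVR (CD155) and NECTIN2 (CD112) bind both the inhibitory receptor TIGIT and the activating receptor CD226 on T and NK cells, so they can act either way. CD47 binds SIRPα on macrophages and holds back phagocytosis, and NT5E (CD73) converts extracellular AMP into adenosine, which suppresses T cells. CD276 (B7-H3) and VSIR (VISTA) belong to the B7 family, TNFRSF14 (HVEM) is a ligand of the inhibitory receptor BTLA, and CD80 is a ligand of CD28 and CTLA4 that is mostly found on antigen-presenting cells.

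Several of these genes make alternative transcripts that decide whether the protein is anchored in the membrane or how it ends inside the cell, and the libraries were compared by these forms. The junctions that tell them apart are printed here because the form-by-form values below rest on them. Each is 30 bases of a GENCODE release 29 transcript, 5′ to 3′, with the upstream exon in lower case and the downstream exon in capitals. The 3 PVR forms share the downstream exon and differ in what precedes it: the whole exon 6 of 159 nucleotides, its first 24 nucleotides only, or exon 5. Exon 6 carries the membrane-spanning stretch, and the products of the short and skipped forms are known as soluble PVR.
PVR, exon 6 full, intron chr19:44658901-44661291: atctgtgtccctcgaGTACAGAGCATGCCA
PVR, exon 6 short, intron chr19:44658766-44661291: ccagtgagcactcagGTACAGAGCATGCCA
PVR, exon 6 skipped, intron chr19:44657911-44661291: ccgtccaggtcaaagGTACAGAGCATGCCA
The 2 NT5E forms share the upstream exon and differ in whether exon 7, of 150 nucleotides, follows it.
NT5E, exon 7 included, intron chr6:85489600-85490507: atgaacgcaacaatgGCACAATTACCTGGG
NT5E, exon 7 skipped, intron chr6:85489600-85491976: atgaacgcaacaatgGAATCCATGTGGTGT
The CD47 forms differ in small exons that encode the cytoplasmic tail, and the gene lies on the minus strand.
CD47, 1 tail exon, intron chr3:108047293-108051938: atacaacctcctaggAATAACTGAAGTGAA
CD47, 3 tail exons, intron chr3:108047293-108049618: gaatgatgaatgatgAATAACTGAAGTGAA
In CD274 the form without exon 3, of 342 nucleotides, lacks the immunoglobulin variable domain that contacts PD-1.
CD274, exon 3 included, intron chr9:5456166-5457078: ggcatttgctgaacgCATTTACTGTCACGG
CD274, exon 3 skipped, intron chr9:5456166-5462833: ggcatttgctgaacgCCCCATACAACAAAA

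Values are FPKM, an abundance that Cufflinks divides by the length of the transcript and by the size of the library, as deposited. A gene's value is the sum over its transcripts, and the interval in brackets is the sum of the bounds that Cufflinks gives for each transcript. These bounds cover uncertainty within a library and not between cultures. Transcripts listed at 0 add their upper bounds, so the interval is wider for genes with many annotated transcripts. The log2 ratio is that of FPKM + 1 for the RBMS1 knockdown library over the same for the control library, and it understates the difference of low genes. Where a pair of values stands together, the knockdown library comes first. The libraries are bulk RNA, so fewer cells carrying a transcript and less of it per cell cannot be told apart. The files hold no read counts, so depth in reads was unknown, and the median coverage per FPKM was 12.4 and 11.4 in the knockdown and control library. RBMS1 was at 3.76 FPKM (3.12 to 5.39) in the knockdown library against 24.1 FPKM (21.7 to 27.7) in the control library, or 15.6% of control, in the direction the labels state. B4GALT1, a galactosyltransferase of the Golgi and the gene the study followed up, stood at 9.70 and 21.4 FPKM, knockdown library first, with a log2 ratio of -1.07. The markers of the line VIM, CD44, AXL, KRT18 and CAV1 lay between 112 and 563 FPKM in both libraries, and those of luminal or hormone-receptor tumours ESR1, PGR, CDH1 and FOXA1 were at most at 0.266 FPKM (FOXA1, control library), while ERBB2 was at 7.5 and 7.0 FPKM, EPCAM at 1.93 and 3.66 FPKM and GATA3 at 2.11 and 1.56 FPKM. All markers of T cells, B cells, macrophages and dendritic cells, fibroblasts and endothelium, 20 genes in all, had a mean below 1 FPKM.

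PVR, at 68.2% of control, had the log2 ratio farthest from 0 among the checkpoint ligands by the sum over all transcripts. With reference transcripts only that was VSIR (-1.32), and with the leading reference transcript of each gene only TNFRSF14 (0.48). None of the 9 genes with a mean of at least 1 FPKM was 2-fold higher or lower, where 5.76% of 11186 genes at that level were (2.8% lower and 2.96% higher). The intervals of both libraries stood apart for 1 of the 9, PVR, against 24.7% of all genes. For CD276 the overlap rested on the upper bounds of transcripts listed at 0. The log2 ratio was below 0 for 6 members and above 0 for 3, with a median of -0.09 against 0.02 over all genes and a range from -0.52 to 0.43. This tally depended on the transcripts counted: 5 of 9 members were lower with reference transcripts only, and 4 of 8, with a median of -0.01, with the leading reference transcript of each gene only. With so few members, these counts do not set them apart from all genes. All 9 passed the filter on the mean of both libraries, and CD80 was listed at 0 in both, so no ratio is given for it.

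**Figure D1:**
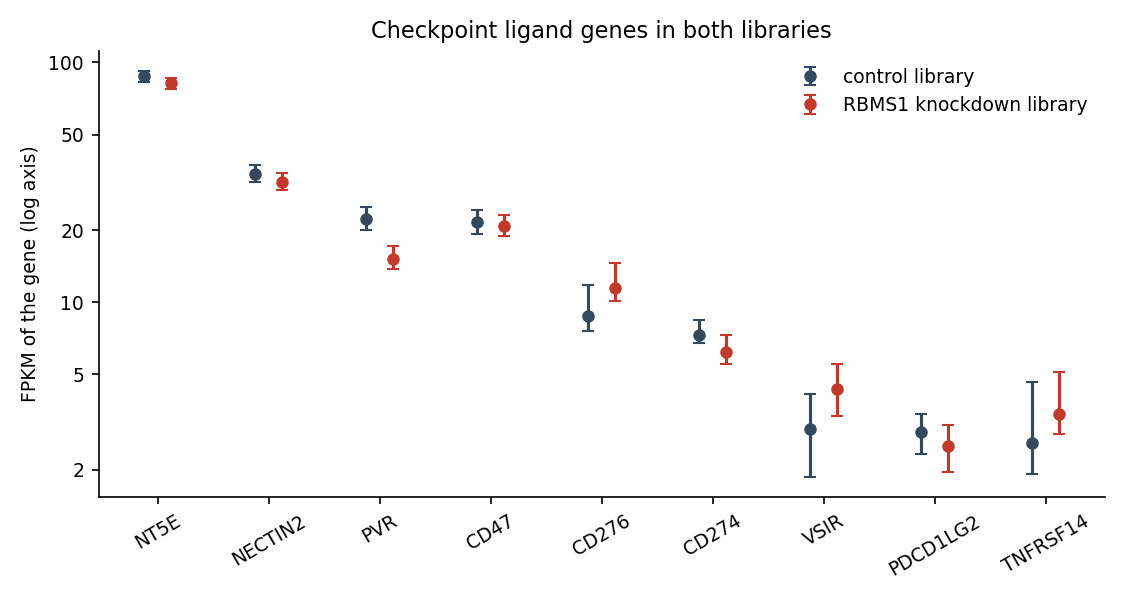
FPKM of each checkpoint ligand gene (log axis) in the control library (dark points) and the RBMS1 knockdown library (red points), 1 library each, with bars for the summed Cufflinks bounds. NT5E is highest at 87.4 and 81.9 FPKM, PVR is the gene whose bars stand apart, and CD80, listed at 0 in both, is left out.

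The ligands of PD-1 stood at a low to moderate level in both libraries. CD274 (ENSG00000120217, chr9:5450503-5470566, plus strand) was at 6.18 FPKM (5.52 to 7.31) in the knockdown library against 7.32 FPKM (6.77 to 8.40) in the control library. That is 84.3% of control, a log2 ratio of -0.21, and the intervals overlapped. PDCD1LG2 (ENSG00000197646, chr9:5510570-5571254, plus strand), its neighbour downstream on the same strand, was at 2.52 FPKM (1.97 to 3.08) and 2.86 FPKM (2.33 to 3.40), a log2 ratio of -0.13. The single reference transcript of PDCD1LG2, of 273 residues, was at 1.88 FPKM in both, and the rest came from assembled transcripts, with 0.643 and 0.985 FPKM. CD274 exceeded PDCD1LG2 by 2.45 times in the knockdown library and 2.56 times in the control library, but by reference transcripts alone the ratio was 2.73 and 3.90.

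The CD274 value depended on which transcripts were counted. In the control library all of it came from the 7-exon coding transcript CD274-202, which encodes 290 residues. That transcript was at 5.14 FPKM (4.70 to 5.57) in the knockdown library against 7.32 FPKM (6.77 to 7.88) in the control library, or 70.1% of control, and its intervals did not overlap. Intervals stood apart for 51.9% of all reference transcripts with a mean of at least 1 FPKM. The rest of the knockdown value, 1.04 FPKM, was an assembled transcript of 3 exons that starts inside intron 1 at chr9:5454124 and ends inside exon 4, so it holds no start at the annotated promoter. In the control library a single-exon assembled fragment of 1.69 FPKM covered 1951 of the 2042 nucleotides of the first exon of that transcript, which runs through intron 1 into the 66 nucleotides of exon 2. The fragment did not reach exon 2, was not joined to any exon and so did not enter the gene value. Reference transcripts alone put the log2 ratio of CD274 at -0.44, and adding that control fragment to the control value gave -0.48, an alternative chosen after the transcripts had been seen. The direction was the same in each case, and the size of the ratio was larger.

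The study also measured CD274 mRNA by quantitative PCR. It reported no effect of RBMS1 depletion on this mRNA in MDA-MB-231 and other lines, with or without interferon-γ. The primers of that assay are shown to place the amplified stretch.
PD-L1 forward primer, chr9:5465533-5465553, exon 5: tcacttggtaattctgggagc
PD-L1 reverse primer, chr9:5466796-5466819, exon 6, written 5′ to 3′ on the opposite strand: ctttgagtttgtatcttggatgcc
Among all GENCODE release 29 transcripts each primer matched exactly in 3, all of them CD274, and both matched in CD274-201 and CD274-202, with an amplicon of 124 nucleotides in CD274-202. Neither position lies in the assembled intron 1 transcript of the knockdown library. Of the deposited transcripts, the amplicon therefore covers CD274-202 and the exon 3 skipping form CD274-201, which cannot be told apart by it. CD274-201, which encodes 176 residues, was listed at 0 in both per-library files. In the deposited table of both libraries, which has an FPKM scale of its own and holds selected transcripts only, it stood at 0.124 FPKM in the knockdown library against 0.805 FPKM in the control library.

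Of the ligands of TIGIT and CD226, PVR was lower in the knockdown library and NECTIN2 was close to control. PVR (ENSG00000073008, chr19:44643798-44663583, plus strand) was at 15.2 FPKM (13.7 to 17.1) in the knockdown library against 22.3 FPKM (20.02 to 25.0) in the control library. This was 68.2% of control, a log2 ratio of -0.52, and 7.24% of the 11186 genes had a lower ratio. NECTIN2 (ENSG00000130202, chr19:44846175-44889228, plus strand) was at 31.8 FPKM (29.5 to 34.5) and 34.3 FPKM (31.8 to 37.3), a log2 ratio of -0.11 with overlapping intervals. PVR thus stood at a smaller level beside NECTIN2 in the knockdown library than in the control library.

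All 3 PVR forms were lower in the knockdown library. The exon 6 full form, the membrane-bound one of 417 residues, was at 8.64 FPKM (7.95 to 9.35) and 11.4 FPKM (10.4 to 12.4), or 75.9% of control. The exon 6 short form, of 372 residues, was at 3.14 FPKM (2.84 to 3.46) and 6.33 FPKM (5.67 to 6.99), or 49.6% of control. The exon 6 skipped form, of 364 residues, was at 3.38 FPKM (2.94 to 3.83) and 4.53 FPKM (3.96 to 5.10), or 74.7% of control. The intervals of the libraries did not overlap for any of the 3. They stood apart for 51.9% of all single reference transcripts with a mean of at least 1 FPKM, and no share was computed for summed forms. For the full form the gap rested on an assembled transcript of the control library, described below. The short form took 20.7% of PVR in the knockdown library against 28.4% in the control library, while the full form took 57.0% and 51.2%.

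These PVR values had to be read by junction and not by transcript name. PVR-203, the reference transcript of the short form, was listed at 0 in the knockdown library but at 6.33 FPKM in the control library. In the knockdown library the same junction was held by an assembled transcript of 3.14 FPKM whose 3′ end runs to chr19:44666158, beyond the annotated end of the gene. In the control library an assembled transcript of 2.57 FPKM with an end at chr19:44667371 held the exon 6 full junction. With only the main reference transcript, PVR-205, the libraries were at 8.64 and 8.82 FPKM, with a log2 ratio of -0.03, so the PVR difference was spread over the other transcripts. Reference transcripts alone gave a log2 ratio of -0.67. Near the 3′ end CEACAM19 overlaps the locus on the same strand and was listed at 0 in both libraries, as a gene whose reads could be divided with PVR.

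NECTIN2 had 2 forms, which share their extracellular part and differ in the membrane-spanning and cytoplasmic part. The short form, of 479 residues, was at 17.6 FPKM and 19.2 FPKM, and the long form, of 538 residues, at 14.1 FPKM and 15.1 FPKM, the knockdown library first. The short form took 55.5% and 55.9% of the gene, so the mix was the same to within 1 percentage point.

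Among the other B7 family members, CD276 and VSIR were higher in the knockdown library, with overlapping intervals, and most of the CD276 difference and all of the VSIR difference lay outside the full-length coding transcript. CD276 (ENSG00000103855, chr15:73683966-73714518, plus strand) was at 11.4 FPKM (10.1 to 14.5) in the knockdown library against 8.76 FPKM (7.59 to 11.8) in the control library, a log2 ratio of 0.35. Of the 19 reference transcripts of CD276, 17 were listed at 0 in both, and the overlap of its intervals rested on their upper bounds. Its coding transcript CD276-202, of 534 residues and with 4 immunoglobulin domains, was at 5.45 FPKM (4.95 to 5.94) and 5.10 FPKM (4.61 to 5.59). The other listed CD276 transcript, CD276-207, is annotated as a retained intron of 2 exons at the 3′ end (chr15:73711132-73714514) and was at 6.0 FPKM (5.18 to 6.82) and 3.66 FPKM (2.98 to 4.35), 164% of control. Most of the higher value of the gene therefore sat in this non-coding transcript, which was the leading transcript in the knockdown library but not in the control library. CD276-201, the form with 2 immunoglobulin domains, was listed at 0 in both; its distinguishing junction has the same 30 bases as one in the longer form, because the domains are repeated, so reads there cannot separate the forms.

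VSIR (ENSG00000107738, chr10:71747559-71773498, minus strand) was at 4.34 FPKM (3.34 to 5.52) in the knockdown library against 2.95 FPKM (1.87 to 4.13) in the control library, a log2 ratio of 0.43. Its direction depended on the assembled transcripts. The full-length coding transcript VSIR-201, of 311 residues, was at 0.353 FPKM (0.257 to 0.450) and 0.727 FPKM (0.589 to 0.866), or 48.6% of control. VSIR-202, a processed transcript of 5 exons, was listed at 0 and at 1.65 FPKM. Assembled transcripts made up 91.9% of the knockdown value and 19.5% of the control value, and counting reference transcripts alone gave a log2 ratio of -1.32. The longest assembled one in the knockdown library, at 2.69 FPKM, spans chr10:71750325-71765407 and begins inside the gene instead of at its annotated start. A second one there was at 1.30 FPKM (chr10:71750325-71757630), and the control library held one of 0.577 FPKM (chr10:71760482-71773573). VSIR lies within CDH23 on the opposite strand, which was below 0.1 FPKM in both libraries, and the strand of the libraries was not stated.

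TNFRSF14 (ENSG00000157873, chr1:2555639-2565382, plus strand) was at 3.41 FPKM (2.83 to 5.12) and 2.59 FPKM (1.92 to 4.63), a log2 ratio of 0.29 with overlapping intervals. Here the coding transcript carried the difference: TNFRSF14-201, of 283 residues, was at 2.83 FPKM (2.38 to 3.29) in the knockdown library against 1.74 FPKM (1.36 to 2.12) in the control library, and these intervals did not overlap. Such a gap was seen for 51.9% of reference transcripts with a mean of at least 1 FPKM. The retained-intron transcript TNFRSF14-208 was at 0.572 and 0.365 FPKM. The control library held a further 0.489 FPKM of another retained-intron transcript that was listed at 0 in the knockdown library. CD80 (ENSG00000121594, chr3:119524293-119559602, minus strand) had 4 reference transcripts, all listed at 0 in both libraries. Its overlapping neighbour on the opposite strand, TIMMDC1, was at 17.1 and 16.4 FPKM.

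CD47 (ENSG00000196776, chr3:108043094-108091862, minus strand) was at 20.8 FPKM (18.8 to 23.1) in the knockdown library against 21.5 FPKM (19.2 to 24.3) in the control library, a log2 ratio of -0.05. The form with 1 tail exon was at 13.1 FPKM and 11.4 FPKM, and the form with 3 tail exons at 7.73 FPKM and 7.72 FPKM. In the control library a further 2.38 FPKM was an assembled transcript that lacks all of these tail exons, including the 32-nucleotide exon 8, and no such transcript was assembled in the knockdown library. The retained-intron transcript CD47-204, counted with the form of 1 tail exon, was at 1.40 and 1.79 FPKM. The main coding transcript CD47-201 was at 11.7 and 9.64 FPKM, 121% of control with intervals that did not overlap, so with that transcript alone the log2 ratio of CD47 was 0.25. Separate intervals were found for 51.9% of reference transcripts with a mean of at least 1 FPKM.

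NT5E (ENSG00000135318, chr6:85449584-85495791, plus strand) was the highest of the genes, at 81.9 FPKM (77.8 to 86.3) in the knockdown library against 87.4 FPKM (82.9 to 92.1) in the control library. The log2 ratio was -0.09 and the intervals overlapped. NT5E alone made up 46.1% and 46.0% of the summed FPKM of the 10 genes. The exon 7 included form, which encodes the enzyme of 574 residues, was at 57.0 FPKM (54.2 to 59.8) and 58.1 FPKM (55.3 to 61.0). The exon 7 skipped form, of 524 residues, was at 25.0 FPKM (23.6 to 26.5) and 29.3 FPKM (27.7 to 31.0), or 85.3% of control, with intervals that did not overlap. Of all reference transcripts with a mean of at least 1 FPKM, 51.9% had separate intervals. The skipped form took 30.5% of NT5E in the knockdown library against 33.5% in the control library.

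**Figure D2:**
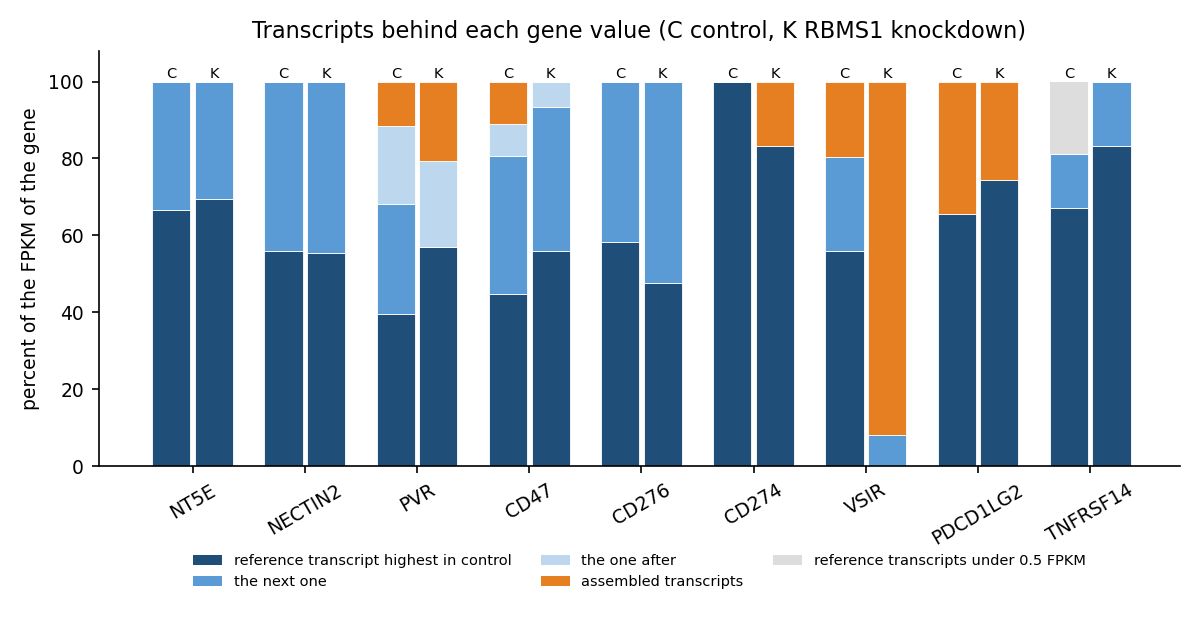
Percent of each gene's FPKM by transcript in the control library (C) and the RBMS1 knockdown library (K), with the reference transcripts in blue, assembled transcripts in orange and reference transcripts below 0.5 FPKM in grey. Assembled transcripts make up 91.9% of VSIR in the knockdown library against 19.5% in the control library, and none of NT5E, NECTIN2, CD276 or TNFRSF14.

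By level, the order in the control library was NT5E, NECTIN2, PVR, CD47, CD276, CD274, VSIR, PDCD1LG2 and TNFRSF14. The intervals of PVR and CD47, of CD276 and CD274, of VSIR and PDCD1LG2, and of PDCD1LG2 and TNFRSF14 overlapped in that library. In the knockdown library CD47 came before PVR with intervals that stood apart, PVR and CD276 overlapped, and VSIR, TNFRSF14 and PDCD1LG2 followed CD274. There the intervals of VSIR and TNFRSF14 and of TNFRSF14 and PDCD1LG2 overlapped, and those of VSIR and PDCD1LG2 did not. The place of VSIR rested on assembled transcripts. By reference transcripts alone VSIR was at 0.353 FPKM and PDCD1LG2 at 1.88 FPKM in the knockdown library. PVR stood below CD47 and PDCD1LG2 below TNFRSF14 in the knockdown library only, but neither pair was resolved in the control library. CD274 came after CD276 in both by the gene sums. By the main coding transcripts in the control library, CD274-202 at 7.32 FPKM (6.77 to 7.88) stood above CD276-202 at 5.10 FPKM (4.61 to 5.59). In the knockdown library these were at 5.14 FPKM (4.70 to 5.57) and 5.45 FPKM (4.95 to 5.94), with overlapping intervals.

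Over the transcripts of the 10 genes, 51 of 70 reference transcripts were listed at 0 in both libraries, and 15 had a mean of at least 1 FPKM. Of these 15, 1 was 2-fold lower (PVR-203, listed at 0 in the knockdown library) and 0 were 2-fold higher, where 16.2% of 14421 reference transcripts at that level were 2-fold apart (8.31% lower and 7.94% higher). The intervals stood apart for 5 lower and 3 higher transcripts, against 51.9% of all such transcripts (24.6% lower and 27.3% higher). The 5 lower ones were CD274-202, PVR-202, PVR-203, NT5E-203 and CD47-204, and the 3 higher ones CD276-207, CD47-201 and TNFRSF14-201. The leading reference transcript differed between the libraries for 2 of 9 genes, CD276 and VSIR, and for 10.2% of 10218 genes in all.

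**Figure D3:**
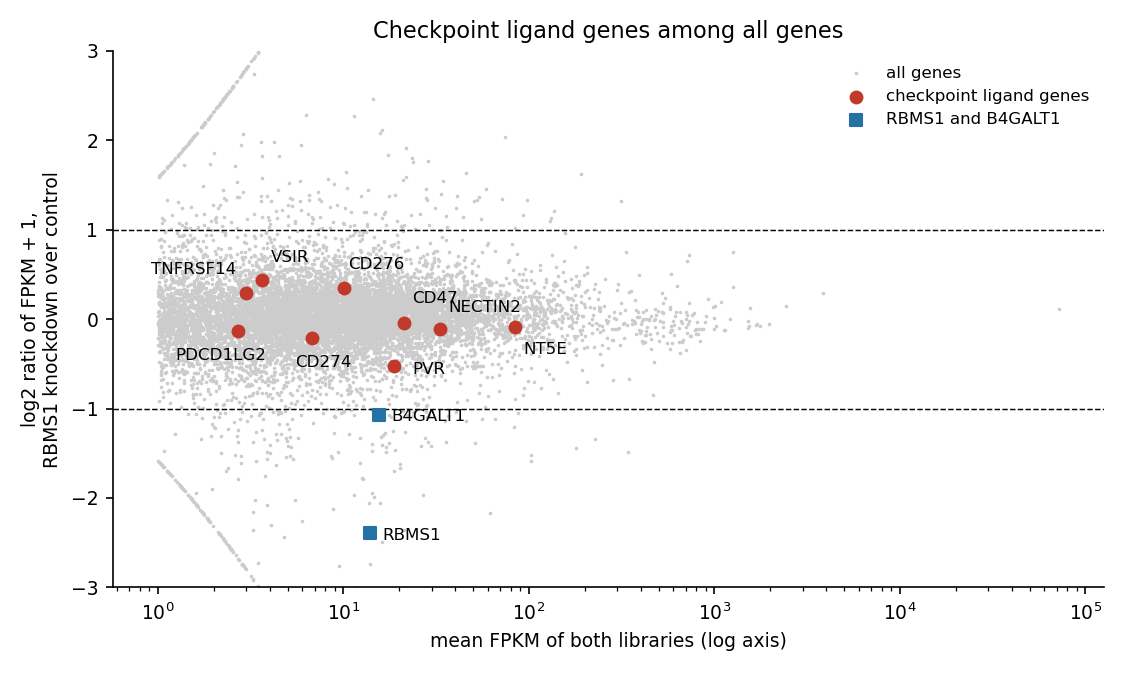
Log2 ratio of FPKM + 1 (knockdown over control) against the mean FPKM of both libraries (log axis) for 11186 genes (grey), the checkpoint ligands (red) and RBMS1 and B4GALT1 (blue), with dashed lines at a 2-fold difference and 112 genes beyond 3 on the log2 axis not shown. The checkpoint ligands lie between -0.52 (PVR) and 0.43 (VSIR), and the slanted rows of grey points are genes listed at 0 in one library.

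The partners of the members and the genes around them were looked at by lists. Other inhibitory surface proteins had 11 of 23 genes at a mean of 1 FPKM or more, none of them 2-fold apart where 5.76% of all genes were, with a median log2 ratio of -0.03. The lowest was CD46, a complement regulator, at 16.7 FPKM in the knockdown library against 29.4 FPKM in the control library, a log2 ratio of -0.78. The highest was LGALS3, a galectin, at 33.9 and 26.7 FPKM, with a log2 ratio of 0.33. Intervals stood apart for 2 lower genes, CD46 and B2M, and 1 higher, LGALS3, where 11.5% of all genes stood apart with a lower and 13.3% with a higher value. B2M, the light chain of MHC class I and chosen here after its value was seen, was at 762 and 906 FPKM.

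Ligands that activate T or NK cells gave the largest difference near the members. ICAM1, an adhesion molecule that T cells hold on to through LFA-1, was at 9.20 FPKM (8.55 to 10.3) in the knockdown library against 31.2 FPKM (28.7 to 34.2) in the control library, a log2 ratio of -1.66. Of the 17 genes in the list 8 passed, and ICAM1 was the 1 that was 2-fold lower, where 2.8% of all genes were. The highest was ULBP2, a stress ligand of the NK receptor NKG2D, at 7.24 and 5.55 FPKM. The intervals stood apart for 2 of the 8, ICAM1 lower and ULBP2 higher, which is near the 24.7% of all genes, and the median of the list was -0.01.

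The receptors that bind the members on immune cells were not seen at a level to be compared, as 0 of 12 had a mean of 1 FPKM and the highest, SIRPA, had 0.502 FPKM. In the adenosine pathway, to which NT5E belongs, 6 of 14 genes passed, none 2-fold apart and none with separate intervals, against 5.76% and 24.7% of all genes. The lowest, the adenosine receptor ADORA2B, was at 38.4 and 43.3 FPKM, and the highest, the nucleoside transporter SLC29A2, was at 3.52 and 3.27 FPKM. The median of the 6 was -0.13.

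**Figure D4:**
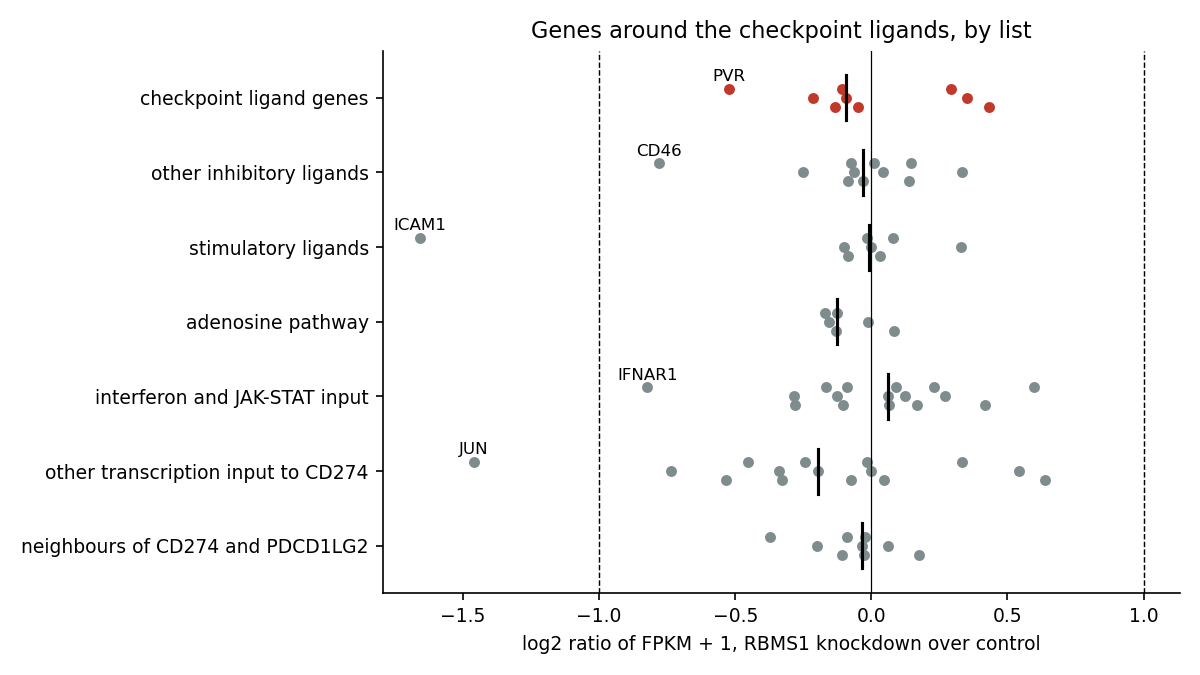
Log2 ratio of FPKM + 1 (knockdown over control) of each gene with a mean of at least 1 FPKM, by list, with a bar at each list's median and dashed lines at a 2-fold difference. ICAM1 at -1.66 and JUN at -1.46 lie past 2-fold, and the medians of the lists lie between -0.19 and 0.06.

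Interferon raises CD274 through JAK kinases and the factor IRF1, and 16 of 17 genes of this route passed the filter. None was 2-fold apart, where 5.76% of all genes were, and the median log2 ratio was 0.06. Intervals stood apart for 2 lower genes, IFNAR1 and JAK1 (named after its value was seen), and 1 higher, SOCS3, where 11.5% and 13.3% of all genes did. The lowest was IFNAR1, a chain of the type I interferon receptor, at 7.58 and 14.2 FPKM, with a log2 ratio of -0.82, and the highest was SOCS3, a feedback inhibitor of JAK signalling, at 9.61 and 6.01 FPKM, with a log2 ratio of 0.60. JAK2, which lies beside CD274, was at 1.65 and 1.82 FPKM. A list of other inputs to CD274 transcription held factors that bind DNA or chromatin and also upstream genes such as the receptor EGFR and the cell cycle inhibitor CDKN1A. All 15 of its genes passed, with a median of -0.19. Intervals stood apart for 7 lower and 2 higher genes, where 11.5% and 13.3% of all genes did. JUN, a subunit of AP-1, was the 1 gene of the 15 that was 2-fold lower, where 2.8% of all genes were, at 9.64 FPKM (8.86 to 10.4) and 28.3 FPKM (27.4 to 29.2), a log2 ratio of -1.46. FOS, its dimer partner, was the highest of that list at 37.8 and 23.9 FPKM, with a log2 ratio of 0.64.

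The promoter of CD274 carries letters of the kind that IRF proteins bind, TTTCNNTTTC or on the other strand GAAANNGAAA, and it is shown because 0 of the other 8 members with a promoter sequence hold them. The window is chr9:5450329-5450358 on the plus strand of GRCh38.p14, from RefSeq, and its first match begins 208 bases before the start used there, chr9:5450542, which differs from the GENCODE start of the gene. Capitals mark 2 matches that overlap each other.
CD274 promoter window: acatgTTTCACTTTCTGTTTCatttctata
Of 35116 promoters of 300 bases, 3.57% hold such a match on either strand. PDCD1LG2 was not matched to a promoter sequence.

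RBMS proteins are known to bind AU-rich RNA such as AUAUA, and these letters were counted on the sense strand of the 3′ untranslated region of the leading coding transcript, with overlapping matches counted. CD274 holds 6 in 2685 nucleotides, or 2.23 per 1000, where regions within 20% of that length hold a median of 4 and 35.4% of them hold as many or more. CD47 holds 9 in 4190 nucleotides, NT5E and PDCD1LG2 hold 2 each, PVR and VSIR hold 1 each, and CD276, NECTIN2 and TNFRSF14 hold 0. B4GALT1 holds 2 in 2817 nucleotides. The counts did not set CD274 or PVR apart from regions of like length: 76.5% of those as long as that of PVR hold at least 1. One CD274 window with a pair of matches is chr9:5469229-5469253, with the matches in capitals and T for U.
CD274 3′ region window: ATATAatctaatgcttgtttATATA

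Genes beside CD274 and PDCD1LG2 on chromosome 9 were compared because both ligands lie in one stretch with them. Of the 11 genes, 9 passed, 0 were 2-fold apart and 0 had separate intervals, with a median of -0.03, where 5.76% of all genes were 2-fold apart and 24.7% had separate intervals. PLGRKT was at 7.14 and 7.78 FPKM and RIC1 at 2.71 and 2.55 FPKM, and the range ran from CDC37L1 at 1.14 and 1.77 FPKM (log2 ratio -0.37) to KIAA2026 at 2.01 and 1.66 FPKM (0.17). By the same sums CD274 was at -0.21 and PDCD1LG2 at -0.13. By the distance of log2(FPKM + 1) over both libraries, the 3 protein-coding genes nearest to CD274 were RNMT, SCAMP1 and PI4KA, each between 6.16 and 6.21 FPKM in the knockdown library and between 7.25 and 7.26 FPKM in the control library. With only 2 libraries this likeness is one of level and ratio.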

How the data were processed

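RNA of MDA-MB-231 cells was sequenced by the authors in 1 RBMS1 knockdown and 1 control library, grouped by the labels. The authors deposited FPKM per transcript with bounds and coverage, and the submitters' processing notes name Bowtie2 2.0.6, TopHat2 2.0.9, Cufflinks 2.1.1 and Cuffdiff 2.1.1. The genome build is not given in the sources used here, and 98.1% of transcript starts match GENCODE release 29 on GRCh38. Cufflinks can list a gene at 0 when an estimate fails. The authors' deposited table of both libraries also holds their fold changes, p-values and q-values, which were not used, and only its FPKM of 3 member transcripts was printed.

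Gene FPKM was summed over reference transcripts and assembled transcripts sharing at least 1 intron on the same strand (Python 3.11.15, pandas 2.3.3); unassigned transcripts held 54.9% and 60.3% of all FPKM. The pseudocount was 1 FPKM and the filter a mean of 1 FPKM. The arithmetic of the gene sum was checked on control values multiplied by known factors, and no reads or assembly were simulated. Named genes were the members with each transcript of at least 0.5 FPKM, the lowest and highest gene of each list, any list gene 2-fold apart, RBMS1, B4GALT1, the neighbours JAK2, PLGRKT and RIC1, the cell markers and the 3 genes nearest to CD274; other names were chosen after their values were seen. Members and lists were chosen with earlier results of these data known, and splice forms after the transcripts had been seen. No protein sequence was used here, so glycosylation sites were not analysed here. Alternatives covered the pseudocount, filter, scaling and transcripts counted.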

Additional observations from a re-analysis of the deposited data

Results flagged for a closer look

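VSIR had an assembled single-exon fragment of 0.677 FPKM inside an intron (chr10:71769640-71770427) in the RBMS1 knockdown library and none in the control library, which drew attention because it lies outside the transcripts counted for the gene. It covered 788 nucleotides at a mean coverage of 7.55. Such fragments are assembled separately in each library, and its origin was not tested. With 1 library per group, no sample was set against others of its group.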

How the results depend on the processing

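Of 195 values of 18 results under alternatives, 189 stayed close to the main value (a ratio within its bounds, a list median within the typical width of the members' bounds, a count within 1.5 times). Changes of the filter cannot alter a gene's own ratio, so those values repeat the main one by design. A value counted as close could change sign. CD47 went from -0.05 to 0.25 with the leading reference transcript only, and PDCD1LG2 from -0.13 to 0.001 with reference transcripts only. A pseudocount of 5 FPKM took the log2 ratio of RBMS1 to -1.73. With reference transcripts only, 1 member was 2-fold apart (VSIR, at -1.32 instead of 0.43) and 3 had separate intervals (CD274, PVR and VSIR). With the leading reference transcript only, 3 had separate intervals (CD274, CD47 and TNFRSF14), and PVR went to -0.03. The shares over all genes were not computed under these settings of the transcripts counted. The counts of members there therefore cannot be set against all genes. CD274 stayed below 0 under all 12 alternatives, between -0.48 and -0.14, but changes of the filter or pseudocount could not alter that sign. Under the other scalings and choices of transcripts it lay between -0.48 and -0.24. The value of -0.48 came from the alternative chosen after the transcripts had been seen. The other scalings kept PVR as the 1 member with separate intervals. The cause of these shifts was not tested, apart from the transcripts that each alternative counts. No paired analysis was possible because each group has 1 library and no value comes from a test. The lack of replicates limits every comparison.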

Other observations

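Assembled fragments within introns, which share no junction with the gene, were found for CD274 and PVR in both libraries. CD274 had 8 in each, covering 4975 nucleotides at a mean coverage of 16.9 in the RBMS1 knockdown library and 7459 nucleotides at 20.5 in the control library. PVR had 4 in each, covering 2583 nucleotides at a mean coverage of 39.1 and 1729 nucleotides at 74.4. NT5E had 2 fragments and CD47 had 1 in the control library and none in the knockdown library, and no such fragment was assembled in PDCD1LG2, CD276, NECTIN2, CD80 or TNFRSF14.

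The deposited table of both libraries holds 2 further transcripts of the members that the per-library files list at 0, again on its own FPKM scale, on which transcripts above 1 FPKM in both sources had a median of 1.74 times the per-library value in the knockdown library and 1.78 times in the control library. PVR-204 stood at 1.16 FPKM in the knockdown library and 2.94 FPKM in the control library, and CD276-203 at 0.862 and 0.164 FPKM. The table is limited to transcripts below a limit on p, so its transcripts are not a sample of all transcripts.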
